A study of Mus musculus with 21 samples.

Results

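The 9 protein-coding genes Ripor3, Spin2c, Inka1, Dysf, Scube2, Prrt4, Extl1, Tdo2 and Adra2a of the mouse are described here across 7 groups of cells sorted from day 4 embryoid bodies. They were chosen by their measured counts in the reporter line, because the difference in expression between cells with and without an Etv2 reporter was not the same in cells with and without the receptor PDGFRalpha. The 9 genes are among 55487 annotated genes, of which 17690 were tested in the reporter line, and each of the 9 passed the filter on low counts in both sets of libraries. The difference between the reporter effects is therefore a description of how the genes were picked, and in the reporter line their values are given without a test.

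Embryoid bodies are aggregates of differentiating embryonic stem cells. Cells were sorted on PDGFRalpha, a receptor of early and paraxial mesoderm, and on FLK1, the VEGF receptor encoded by Kdr. The double-positive gate is called DP, and the gate with FLK1 but no PDGFRalpha is called SP. In the TGET line, which carries T-GFP and Etv2-tdTomato, DP and SP cells were each split by tdTomato into Etv2-negative and Etv2-positive cells, so all 4 of these groups carry both reporters. A second set came from wildtype (WT) embryoid bodies of the A2lox.Cre line, sorted into DP and SP, and from SP cells of an iEtv2 line given doxycycline at 2 µg per ml from day 2.5 to switch on Etv2. For the WT cells the labels give no doxycycline, so the line, the drug and the induced factor cannot be told apart. Each group had 3 libraries of total RNA, 21 in all, and nothing in the labels says whether these were separate cultures, so p-values measure the spread between these libraries, which may be technical.

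ETV2 is a transcription factor of the ETS family that is needed for blood and endothelial cells to form from mesoderm. It acts in FLK1-positive mesoderm, where cells lose PDGFRalpha as they move away from cardiac and paraxial fates. ETS proteins bind short DNA sites built around the letters GGAA, and ETV2 is known for opening endothelial and blood genes during a brief window.

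The 9 genes have unlike roles. Scube2 encodes a secreted and surface-bound glycoprotein that helps hedgehog ligands leave the cells that make them, Adra2a a G protein-coupled receptor for noradrenaline, and Prrt4 a proline-rich transmembrane protein. Dysf encodes dysferlin, a membrane protein that reseals torn plasma membrane. Inka1 encodes an inhibitor of the kinase PAK4, and Ripor3 a member of a family whose other proteins bind small GTPases. Extl1 and Tdo2 encode enzymes, a glycosyltransferase of heparan sulfate chains and tryptophan dioxygenase. Spin2c encodes a spindlin, a family of nuclear proteins that read histone marks.

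Promoters are shown for 4 of the genes because 2 of them, Dysf and Scube2, rose and the other two, Spin2c and Ripor3, fell where Etv2 was induced, as given further on. Each sequence holds up to 250 bases before a start site in RefSeq on build GRCm38.p6 (mm10), read 5′ to 3′ along the gene and ended where the first GENCODE M21 exon of the gene begins, which leaves out 68 bases for Spin2c and 1 for Dysf. The Ripor3 window overlaps an exon of the antisense gene Gm14236, and the inner Dysf start lies within the Dysf gene. Capitals mark the letters AGGAAG, an ETS-type word.

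Spin2c, chrX:153832043-153832224, plus strand: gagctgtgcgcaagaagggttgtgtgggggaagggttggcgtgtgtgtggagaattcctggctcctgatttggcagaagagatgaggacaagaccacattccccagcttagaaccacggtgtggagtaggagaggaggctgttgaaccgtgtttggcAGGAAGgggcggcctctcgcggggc

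Dysf, the inner start site, chr6:84019136-84019384, plus strand: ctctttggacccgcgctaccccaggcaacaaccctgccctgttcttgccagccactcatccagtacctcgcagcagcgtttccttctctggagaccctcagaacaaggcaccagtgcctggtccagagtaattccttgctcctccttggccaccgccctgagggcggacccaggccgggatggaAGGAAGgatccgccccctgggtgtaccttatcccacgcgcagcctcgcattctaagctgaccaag

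Ripor3, chr2:168010619-168010868, minus strand: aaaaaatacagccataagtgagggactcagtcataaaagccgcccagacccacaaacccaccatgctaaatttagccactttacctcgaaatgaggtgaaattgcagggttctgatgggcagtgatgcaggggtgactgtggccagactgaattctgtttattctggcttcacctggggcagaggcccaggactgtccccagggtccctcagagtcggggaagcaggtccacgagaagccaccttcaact

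Scube2, chr7:109865680-109865929, minus strand: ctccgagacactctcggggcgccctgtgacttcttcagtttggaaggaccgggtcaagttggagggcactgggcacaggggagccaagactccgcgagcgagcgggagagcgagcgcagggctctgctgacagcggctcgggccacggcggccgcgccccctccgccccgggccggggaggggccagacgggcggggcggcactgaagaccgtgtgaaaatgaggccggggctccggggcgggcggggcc

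The table held 10 promoter windows for the 9 genes, since Dysf has an outer start site as well. Each window of 300 bases, from 250 before to 50 after the start, was searched on both strands for short words that factors of these families are known to bind. The ETS family was searched by the word CGGAAG and by a variant that begins with another base, AGGAAG. For the GATA family the word was AGATAA, for the forkhead (FOX) family it was GTAAACA, for E-boxes it was CAGATG, and for the T-box family it was AGGTGTGA. Spin2c held AGGAAG at 93 to 88 and, in the part not shown, at 68 to 63 bases before its start, and the inner Dysf promoter held it at 66 to 61 bases before. Adra2a held CGGAAG on the minus strand just after its start, and Inka1 held CAGATG across its start. The Adra2a, Tdo2 and Extl1 windows lie within the GENCODE bounds of these genes, as the inner Dysf window does. Since Adra2a has 1 exon, its window is wholly exonic. The Ripor3, Scube2, Prrt4, Extl1 and Tdo2 windows and the outer Dysf window held none of these letters. Of 32851 promoters of this length in the table, 46.5% hold an ETS word of either kind, 35.4% the variant marked in capitals above and 16.9% the other ETS word. The E-box word stands in 17.2%, the GATA word in 11.2%, the FOX word in 3.65% and the T-box word in 1.28%. A match describes letters in a window and is not a bound site.

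Each reporter-line library held between 25045553 and 32777143 counts, and each library of the second set between 22406153 and 28184904. Levels are given as CPM, counts brought to a common library total after TMM scaling. The limit that a count of 0 sets, 3 counts, corresponds to 0.0915 to 0.134 CPM and covers counting error alone. Values after ± are SD for CPM and SE for log2 fold changes, with n = 3 libraries in each group. Levels are compared within a set, because the share of counts on pseudogenes was 12.2 to 14.4% for the reporter line but 0.549 to 0.636% for the other libraries. Etv2 itself was 20.2 ± 2.61 and 58.4 ± 10.3 CPM in DP Etv2-negative and Etv2-positive cells, 26.6 ± 1.04 and 89 ± 17 in the SP counterparts, and 53.6 ± 4.38, 93.6 ± 22.4 and 239 ± 10.2 in the WT DP, WT SP and iEtv2 SP groups. Group means of Pdgfra were 150 to 253 CPM in the DP groups of the reporter line and 37.5 to 51.7 in its SP groups, and 318 ± 67.4, 40 ± 7.75 and 6.74 ± 3.55 in the second set. Kdr, selected for in every sort, had group means of 437 to 604 CPM in the first set and 858 to 892 in the second. With the reporter, Pdgfra fell in DP cells from 253 to 150 CPM (log2 -0.76 ± 0.19, adjusted p = 0.00868, edgeR quasi-likelihood test). Kdr fell there from 587 to 437 CPM (-0.42 ± 0.12, adjusted p = 0.0158), a call kept in 12 of 14 alternative fits. In SP cells neither passed (adjusted p = 0.0999 for Pdgfra and 0.241 for Kdr). The DP reporter groups thus differed in RNA of the sort genes too. The ribosomal RNA share was high in SP Etv2-negative replicate 2 (1.40% of counts) and in replicate 3 of the SP Etv2-positive cells (1.28%), and no higher than 0.432% in the other 10 libraries of this line.

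The choice of the 9 genes fixed 2 patterns in the reporter line, set by the direction of the difference between the gates. In Scube2, Dysf, Inka1 and Adra2a the log2 reporter effect was more positive in SP than in DP cells. In Ripor3, Extl1, Spin2c, Tdo2 and Prrt4 it was more positive in DP cells. These genes stand at the top of the genes that differed, of which 702 of 17690 tested, 3.97% of those tested, passed an edgeR quasi-likelihood test at a Benjamini-Hochberg adjusted p below 0.05. In the background 1.52% of genes differed towards a more positive SP effect and 2.45% towards a more positive DP effect. When called genes of 5 CPM or more on average are ranked by size, the first group takes ranks 1, 2, 3 and 5 of 221, and the second ranks 1 to 5 of 361. Just inside, Scube2 differed by 1.87 ± 0.41 and Extl1 by -2.43 ± 0.39 on the log2 scale, SP effect minus DP effect. Just outside, Hhex differed by 1.73 ± 0.37 and Gucy1b1 by -2.34 ± 0.55, and Wnt2b, ranked above Scube2 at 2.16 ± 0.51, is not among the 9. Since these are bulk samples, a change in the share of cells that express a gene and a change in RNA per cell cannot be told apart.

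**Figure D1:**
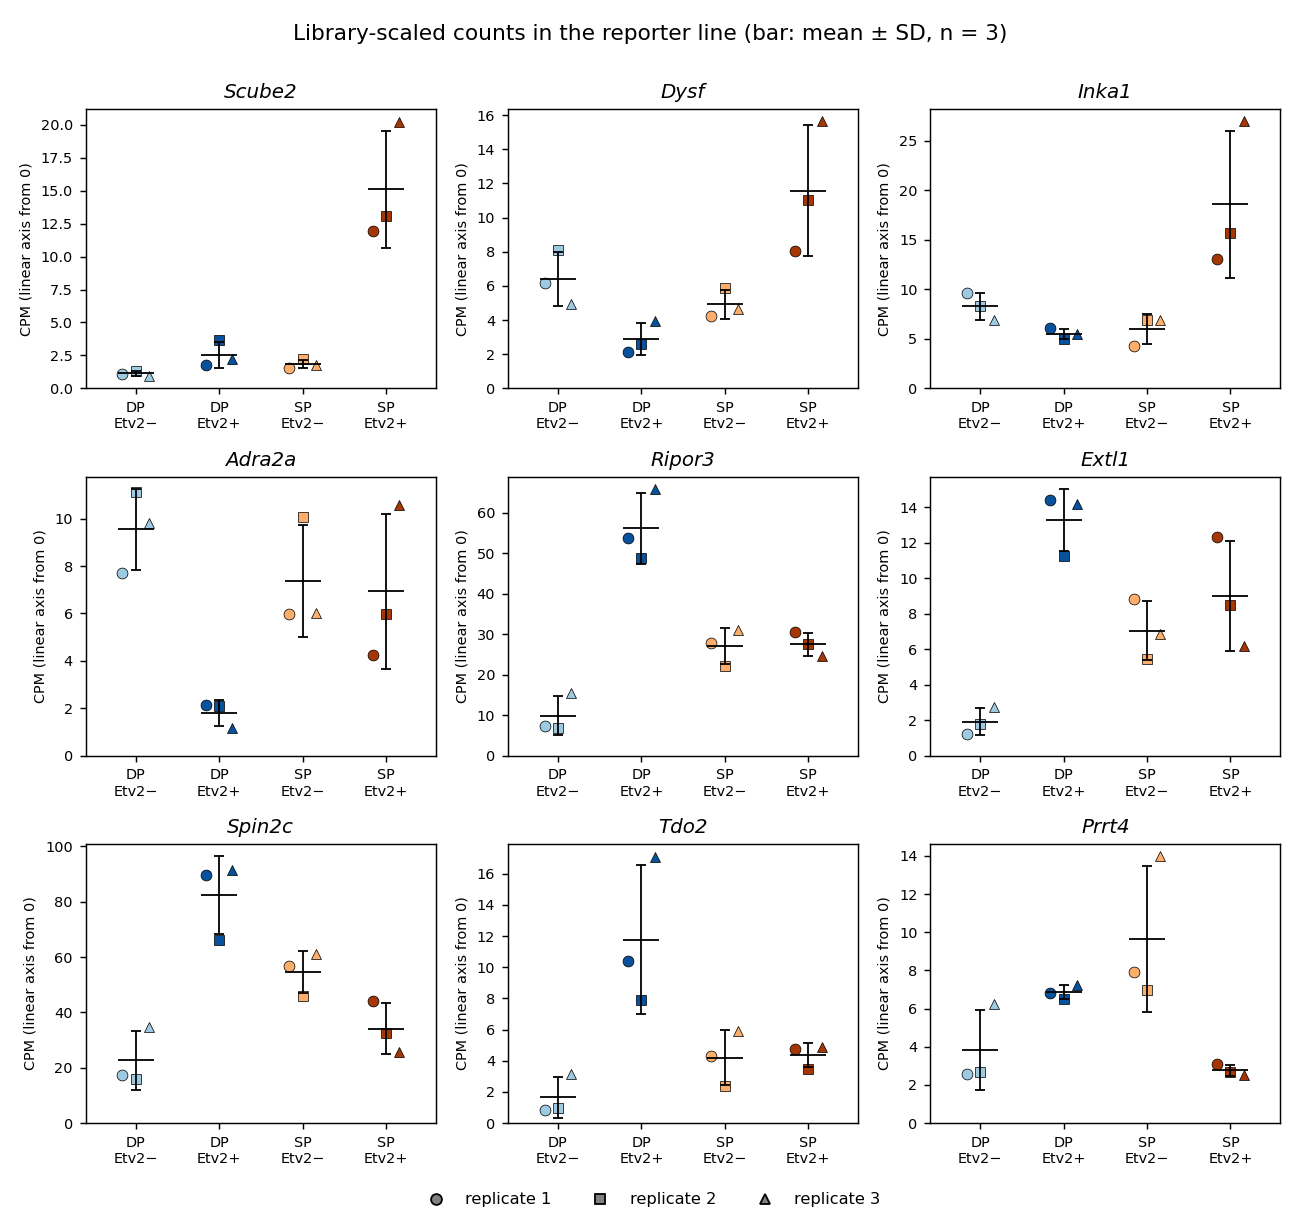
CPM of each gene in the 4 groups of the TGET reporter line (linear axes from 0). Symbols are the 3 libraries of a group by replicate number, and the bar and whiskers give mean ± SD. Scube2, Dysf and Inka1 have their highest mean in SP Etv2-positive cells, Adra2a its lowest in DP Etv2-positive cells, Ripor3, Extl1, Spin2c and Tdo2 their highest mean in DP Etv2-positive cells, and Prrt4 in SP Etv2-negative cells.

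Scube2 (ENSMUSG00000007279, mm10 chr7:109798676-109865679, minus strand) was low except in SP Etv2-positive cells. It stood at 1.1, 1.33 and 0.976 CPM in DP Etv2-negative, 1.8, 3.63 and 2.2 in DP Etv2-positive, 1.58, 2.21 and 1.77 in SP Etv2-negative and 12, 13.1 and 20.2 in SP Etv2-positive replicates 1 to 3. The SP Etv2-positive libraries lay above all 9 others, while SP Etv2-negative and DP Etv2-positive cells overlapped. Its reporter effect was 1.15 ± 0.30 in DP and 3.02 ± 0.26 in SP cells on the log2 scale, an 8.11-fold difference in SP. In the second set the WT DP libraries held 1.91, 2.99 and 2.57 CPM of Scube2, the WT SP libraries 14.9, 12.8 and 8.96, and the iEtv2 SP libraries 57.2, 42.7 and 42.1, with no overlap between groups.

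Adra2a (ENSMUSG00000033717, mm10 chr19:54044151-54048982, plus strand), a gene of 1 exon, was low in 1 group. It stood at 7.72, 11.1 and 9.83 CPM in DP Etv2-negative cells and at 2.13, 2.1 and 1.18 in DP Etv2-positive cells, a log2 difference of -2.42 ± 0.35. In SP cells the values were 5.99, 10.1 and 6.04 CPM without and 4.24, 5.97 and 10.6 with the reporter, and these groups overlapped each other and the DP Etv2-negative cells. Ratios of libraries with the same replicate number did not share a direction in SP cells, with log2 values of -0.50, -0.75 and 0.81. WT DP cells held 9.53, 7.66 and 3.97 CPM, WT SP cells 11.7, 9.09 and 6.83 and iEtv2 SP cells 3.11, 6.33 and 4.06. The WT groups overlapped, and iEtv2 SP cells lay below every WT SP library.

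Prrt4 (ENSMUSG00000079654, mm10 chr6:29169232-29179584, minus strand) differed in opposite directions in the gates. It stood at 2.55, 2.65 and 6.23 CPM in DP Etv2-negative and 6.84, 6.52 and 7.25 in DP Etv2-positive cells, a log2 difference of 0.85 ± 0.32. In SP cells the values were 7.92, 6.96 and 14 CPM without and 3.1, 2.67 and 2.5 with the reporter, a log2 difference of -1.80 ± 0.33. Replicate 3 of the DP Etv2-negative cells lay close to the Etv2-positive range, and without it the DP difference was 1.40 ± 0.27. Prrt4 was low throughout the second set, at 1.22, 1.56 and 1.35 CPM in the WT DP cells, 1.65, 1.45 and 1.61 in the WT SP cells and 0.307, 0.381 and 0.44 in the iEtv2 SP.

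Dysf (ENSMUSG00000033788, mm10 chr6:84008590-84211060, plus strand) was lower with the reporter in DP cells and higher in SP cells. The DP libraries held 6.19, 8.11 and 4.95 CPM without and 2.13, 2.59 and 3.94 with the reporter, a log2 difference of -1.14 ± 0.28. The SP libraries held 4.27, 5.88 and 4.64 CPM without and 8.03, 11.1 and 15.7 with it, a difference of 1.23 ± 0.26. Within each gate the reporter groups did not overlap, but SP Etv2-positive cells overlapped the DP Etv2-negative range by a narrow margin. In the second set Dysf showed the widest span of the 9 genes upward: 3.74, 5.22 and 3.47 CPM in the WT DP cells, 14.9, 12.9 and 11.4 in the WT SP cells and 158, 182 and 185 in the iEtv2 SP. It overlaps antisense genes over 352 (Gm15475) and 105 (Gm33024) exonic bases, and 96.1% of its 50-base windows occur in no other gene.

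Inka1 (ENSMUSG00000042106, mm10 chr9:107984223-107985879, minus strand) had the same shape with a smaller DP difference. DP cells held 9.64, 8.35 and 6.93 CPM without and 6.07, 5.02 and 5.45 with the reporter, a log2 difference of -0.59 ± 0.26. SP cells held 4.3, 6.89 and 6.92 CPM without and 13.1, 15.7 and 27.1 with it, a difference of 1.62 ± 0.25, and the SP Etv2-positive libraries lay above all others. The SP Etv2-negative and DP Etv2-positive groups overlapped. The second set gave 12.7, 12.3 and 10.3 CPM in the WT DP cells, 29.7, 16.7 and 20.9 in the WT SP cells and 55.2, 46.8 and 44.9 in the iEtv2 SP, 3 groups without overlap.

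Ripor3 (ENSMUSG00000074577, mm10 chr2:167980164-168010618, minus strand) was highest in DP Etv2-positive cells. It stood at 7.37, 6.81 and 15.6 CPM in DP Etv2-negative and 53.9, 48.8 and 65.9 in DP Etv2-positive cells, a log2 difference of 2.50 ± 0.25 or 5.66-fold. SP cells held 27.8, 22.3 and 31.1 CPM without and 30.4, 27.5 and 24.6 with the reporter, overlapping values between the DP extremes, and the SP reporter effect was 0.03 ± 0.24. In the second set Ripor3 stood at 10.8, 9.22 and 6.81 CPM in the WT DP cells, 20.3, 18.1 and 19.2 in the WT SP cells and 2.42, 1.6 and 1.49 in the iEtv2 SP, without overlap. Ripor3 shares 90 exonic bases with the antisense gene Gm14236, and 98.8% of its 50-base windows were unique.

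Extl1 (ENSMUSG00000028838, mm10 chr4:134356372-134383850, minus strand) also had its highest mean in DP Etv2-positive cells. DP cells held 1.21, 1.81 and 2.73 CPM without and 14.4, 11.3 and 14.2 with the reporter, a log2 difference of 2.78 ± 0.29. SP cells held 8.82, 5.46 and 6.89 CPM without and 12.3, 8.49 and 6.2 with it, which overlapped, and the highest SP Etv2-positive library reached the DP Etv2-positive range. WT DP cells held 1.75, 1.43 and 1.8 CPM, WT SP cells 4, 5.17 and 5.56, and iEtv2 SP cells 1.11, 0.953 and 0.372, again 3 separate groups.

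Tdo2 (ENSMUSG00000028011, mm10 chr3:81957090-81976202, minus strand) had the largest difference between the gates, -2.77 on the log2 scale, and the largest SE of it, 0.62. DP cells held 0.862, 0.934 and 3.16 CPM without and 10.4, 7.87 and 17.1 with the reporter, a log2 difference of 2.83 ± 0.45, or 3.70 ± 0.45 without replicate 3 of the DP Etv2-negative cells. SP cells held 4.3, 2.37 and 5.93 CPM without and 4.72, 3.49 and 4.9 with it, overlapping values. In the second set it was low: 1.6, 0.842 and 0.496 CPM in the WT DP cells, 2.32, 1.41 and 1.74 in the WT SP cells and 0.153, 0.305 and 0.0677 in the iEtv2 SP, of which the last library lies under the limit of 3 counts.

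Spin2c (ENSMUSG00000046550, mm10 chrX:153832225-153834243, plus strand) had the highest CPM of the 9 in the reporter line. DP cells held 17.3, 15.8 and 34.8 CPM without and 89.7, 66.1 and 91.6 with the reporter, a log2 difference of 1.87 ± 0.27. SP cells held 56.7, 46 and 61 CPM without and 44.1, 32.6 and 25.8 with it, a difference of -0.68 ± 0.26 with a narrow gap between the groups. The second set gave 10.8, 14.3 and 7.71 CPM in the WT DP cells, 18.4, 29.3 and 30.1 in the WT SP cells and 6.29, 3.51 and 4.64 in the iEtv2 SP, without overlap. All 50-base windows of Spin2c, as of the other 6 genes besides Ripor3 and Dysf, occurred in no other gene, and its close copy Spin2d was at 0 in all 12 reporter-line libraries.

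The same libraries were highest in several of the genes. Replicate 3 of the DP Etv2-negative cells was the highest of its group for Ripor3, Spin2c, Prrt4, Extl1 and Tdo2, and replicate 3 was also the highest for Ripor3, Spin2c, Prrt4 and Tdo2 among DP Etv2-positive and SP Etv2-negative cells. With the replicate number as a block, the difference between the gates was -2.48 ± 0.26 for Ripor3, -2.54 ± 0.31 for Spin2c, -2.66 ± 0.34 for Prrt4, -2.40 ± 0.35 for Extl1 and -2.74 ± 0.33 for Tdo2. Without the DP Etv2-negative library alone the difference between the gates was -2.97 ± 0.22 for Ripor3, -2.998 ± 0.28 for Spin2c, -3.21 ± 0.36 for Prrt4, -2.76 ± 0.40 for Extl1 and -3.65 ± 0.56 for Tdo2, against -2.48 ± 0.34, -2.54 ± 0.38, -2.65 ± 0.46, -2.43 ± 0.39 and -2.77 ± 0.62 with it and no block. Summed endothelial markers (Pecam1, Cdh5, Tek, Tie1 and Emcn) were 5.59 CPM in that library against 2.19 and 2.41 in the other two, and Emcn was at 0 in the group, while paraxial markers (Tbx6, Msgn1, Mesp2, Dll1 and Meox1) were 58.1 against 75.6 and 70.6. Replicate 3 of the SP Etv2-positive cells, with the high ribosomal share, was the highest of its group for Inka1, Dysf, Scube2 and Adra2a, and for Tdo2 of the other pattern. There the endothelial markers were 73 CPM against 31.7 and 35.3, and blood markers (Tal1, Runx1, Gata1, Gfi1b and Itga2b) 293.8 against 174.3 and 176.7. Without this library the difference between the gates was 1.84 ± 0.26 for Inka1, 2.09 ± 0.35 for Dysf, 1.60 ± 0.35 for Scube2 and 1.89 ± 0.39 for Adra2a. Without both libraries of high ribosomal share it was 1.94 ± 0.28, 2.24 ± 0.37, 1.74 ± 0.37 and 2.18 ± 0.34. These values describe libraries that also chose the genes. The part of these marker cells in the values was not tested.

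The second set, which the choice of the genes did not use, allows a test of the WT gate and of iEtv2 SP against WT SP cells. The words induced Etv2 name the latter comparison, in which the line, the drug and the induced factor cannot be told apart. Of the 9 genes, 6 were higher in WT SP than in WT DP cells, none was lower and 3 did not pass (edgeR quasi-likelihood test, Benjamini-Hochberg adjusted over 16288 genes). In the background 9.08% of genes were higher and 6.76% lower in this comparison. The 6 genes came from both patterns. Scube2 rose by a log2 fold change of 2.30 ± 0.23 (adjusted p = 0.000113), Dysf by 1.66 ± 0.15 (adjusted p = 7.34e-05) and Inka1 by 0.93 ± 0.19 (adjusted p = 0.00716). Extl1 rose by 1.56 ± 0.29 (adjusted p = 0.00447), Spin2c by 1.24 ± 0.26 (adjusted p = 0.00861) and Ripor3 by 1.10 ± 0.18 (adjusted p = 0.00254). The values for the others were 0.87 ± 0.42 for Tdo2 (adjusted p = 0.197), 0.38 ± 0.33 for Adra2a (adjusted p = 0.499) and 0.19 ± 0.22 for Prrt4 (adjusted p = 0.634). Tdo2 passed without WT DP replicate 1, at 1.43 with an adjusted p of 0.0433.

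Over all genes of the reporter line, 6.1% were called higher and 4.84% lower in SP than DP among Etv2-negative cells (10.9% together), and 6.95% and 6.94% among Etv2-positive cells (13.9%). Nothing is read from these shares, since the choice of the genes used this contrast. Beside these WT values, the gate difference in the reporter line depended on the reporter, as the choice of the genes fixes. Among Etv2-negative cells, SP over DP was positive for Extl1 (1.86 ± 0.30), Ripor3 (1.44 ± 0.25), Prrt4 (1.33 ± 0.31), Tdo2 (1.33 ± 0.47), Spin2c (1.27 ± 0.27) and Scube2 (0.71 ± 0.31). It was -0.45 ± 0.26 for Inka1, -0.38 ± 0.27 for Dysf and -0.38 ± 0.30 for Adra2a. Among Etv2-positive cells it was positive for Scube2 (2.57 ± 0.25), Dysf (1.99 ± 0.28), Adra2a (1.96 ± 0.35) and Inka1 (1.76 ± 0.25). It was negative for Tdo2 (-1.43 ± 0.41), Prrt4 (-1.32 ± 0.33), Spin2c (-1.27 ± 0.26), Ripor3 (-1.03 ± 0.23) and Extl1 (-0.56 ± 0.25). WT cells were not split by Etv2, and their gate differences had the sign of the Etv2-positive cells for Dysf and Inka1, that of the Etv2-negative cells for Ripor3, Spin2c and Extl1, and the sign of both for Scube2.

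With induced Etv2, in iEtv2 SP over WT SP cells, 3 of the 9 genes rose and 6 fell. In the background 26.4% of genes rose and 24.4% fell, 50.8% in all, so a call alone is common in this comparison. Sizes ran from 1.04 to 3.74 on the log2 scale, counting both directions. Genes outside the 9 also moved this far, among them Tph1 (-3.49 ± 0.32) and Tie1 (5.46 ± 0.26). Dysf rose 13.4-fold, by 3.74 ± 0.14 on the log2 scale (adjusted p = 3.56e-08), Scube2 by 1.95 ± 0.20 (adjusted p = 1.46e-05) and Inka1 by 1.13 ± 0.18 (adjusted p = 0.000369). The genes with the more positive reporter effect in DP cells all fell: Ripor3 changed by -3.39 ± 0.21 (adjusted p = 5.67e-07), Tdo2 by -3.37 ± 0.53 (adjusted p = 0.000331), Extl1 by -2.61 ± 0.31 (adjusted p = 5.2e-05), Spin2c by -2.43 ± 0.28 (adjusted p = 3.59e-05) and Prrt4 by -2.04 ± 0.25 (adjusted p = 6.32e-05). Adra2a fell by 1.04 on the log2 scale (SE 0.33, adjusted p = 0.0231). That call was lost without WT SP replicate 1 (-0.82, adjusted p = 0.09), iEtv2 SP replicate 1 (-0.82, adjusted p = 0.0735) or iEtv2 SP replicate 3 (-0.97, adjusted p = 0.0781). The comparison shares the WT SP libraries with the WT gate, so the 2 are not independent. Ripor3, Spin2c and Extl1 were thus higher in WT SP than WT DP and lower in iEtv2 SP than in WT SP. Their iEtv2 SP libraries also lay below every WT DP library, a comparison that was not tested. The gap there was narrow for Spin2c (6.29 against 7.71 CPM) and Extl1 (1.11 against 1.43).

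**Figure D2:**
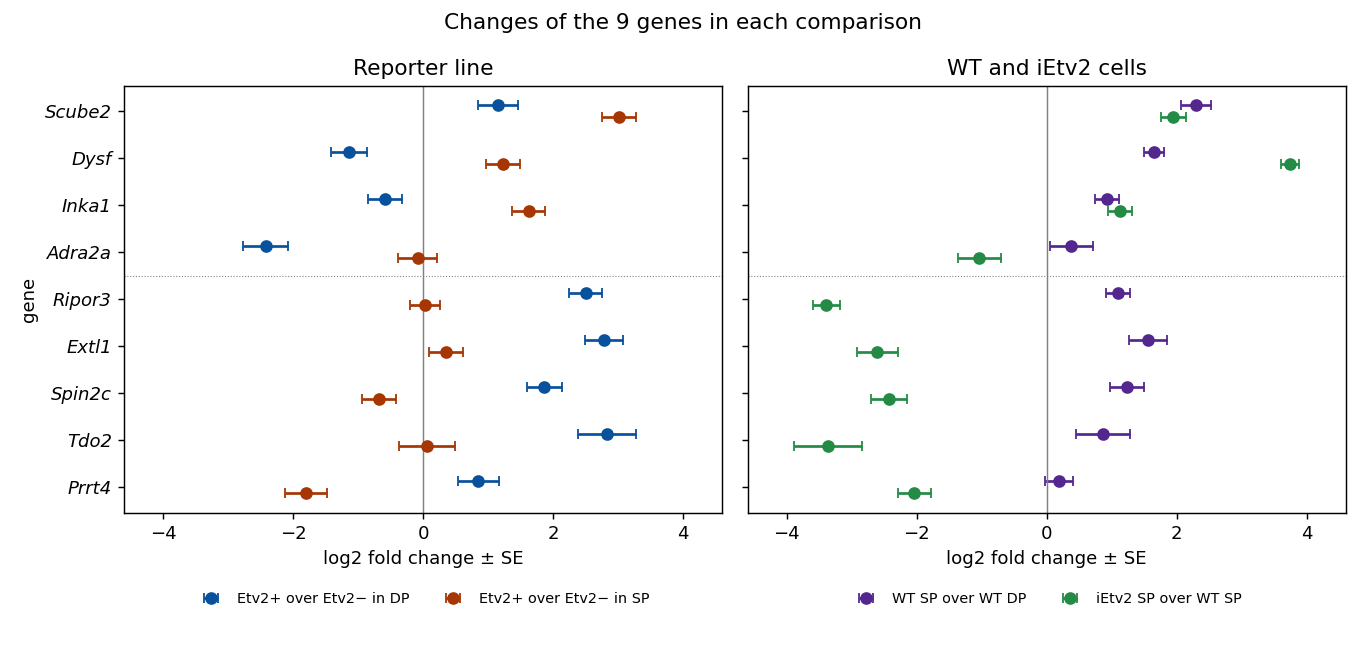
Log2 fold change ± SE of the 9 genes, for Etv2-positive over Etv2-negative cells of each gate (left) and for the WT gate and induced Etv2 (right). The dotted line separates the 4 genes with a more positive reporter effect in SP cells from the 5 with a more positive effect in DP cells. On the right Dysf reaches 3.74 and Ripor3 -3.39 with induced Etv2.

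**Figure D3:**
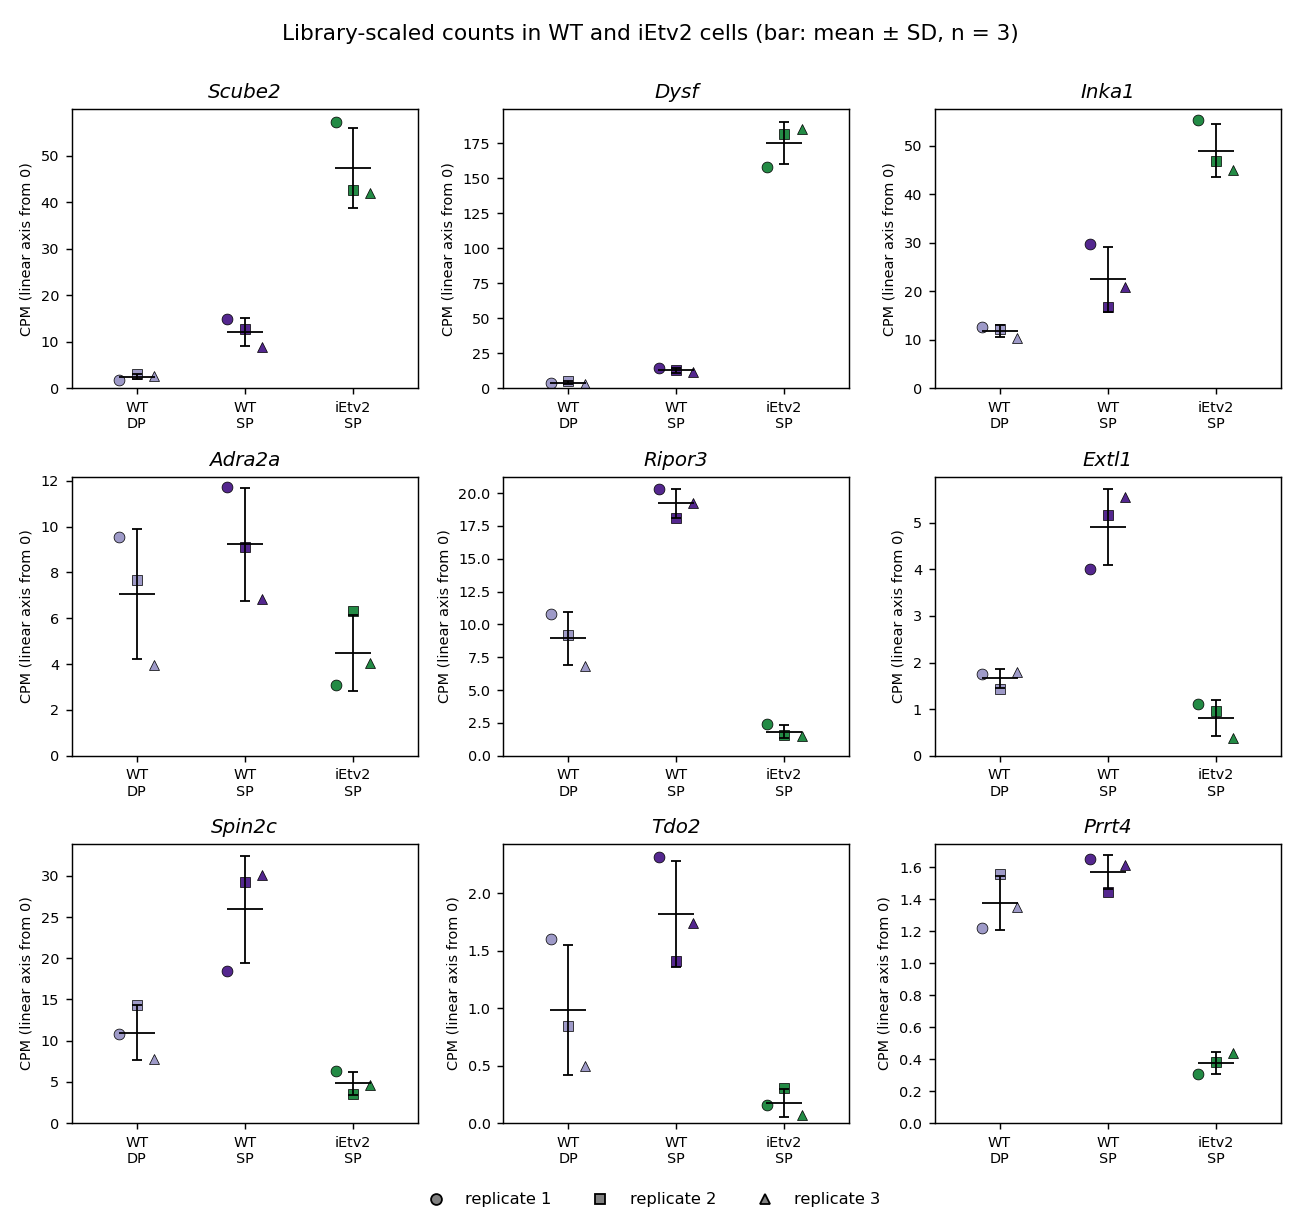
CPM of each gene in WT DP, WT SP and iEtv2 SP cells (linear axes from 0), with the 3 libraries of a group as symbols and mean ± SD as bar and whiskers. Scube2, Dysf and Inka1 climb from WT DP to iEtv2 SP, whereas Ripor3, Extl1 and Spin2c have their highest mean in WT SP and their lowest in iEtv2 SP.

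Cell type markers moved with the groups as well. Summed endothelial markers ran from 3.61 to 6.90 CPM in WT DP, 35.5 to 65.9 in WT SP and 742 to 1160 in iEtv2 SP. Summed blood markers ran from 31 to 38.5, from 199 to 251 and from 339 to 348 CPM, but the 5 genes did not move together with induced Etv2. Tal1 and Itga2b rose by 1.06 ± 0.13 and 1.76 ± 0.24 on the log2 scale (adjusted p = 6.28e-05 and 0.00013), whereas Gata1 (-1.94 ± 0.50, adjusted p = 0.00795), Runx1 (-1.91 ± 0.12, adjusted p = 6.25e-07) and Gfi1b (-1.60 ± 0.45, adjusted p = 0.012) fell. Paraxial markers were 97.6 to 111, 17.4 to 26.2 and 6.9 to 9.8 CPM, and cardiac markers 34.2 to 41.5, 30.1 to 36.5 and 3.3 to 6.37. Pluripotency markers were 78.2 to 113 CPM in WT DP, 54.2 to 84.8 in WT SP and 247 to 272 in iEtv2 SP. In the reporter line, endothelial markers were 2.19 to 5.59 CPM in DP Etv2-negative, 8.09 to 21.4 in DP Etv2-positive, 6.06 to 13.4 in SP Etv2-negative and 31.7 to 73 in SP Etv2-positive cells. Blood markers, in the same order of groups, were 15.6 to 20.04, 44.3 to 50.9, 48.1 to 55.5 and 174 to 294 CPM. Paraxial markers were 58.1 to 75.6, 8.31 to 12.2, 13.5 to 24.1 and 4.45 to 5.75 CPM, and pluripotency markers 161 to 211, 47.2 to 66.7, 84.5 to 115 and 39.7 to 49.9. Summed cardiac markers differed less, at 32.4 to 37.3, 43.6 to 45.03, 33.6 to 36.8 and 43.96 to 47.5 CPM, but the 5 genes moved in opposite directions. With the reporter 4 rose and 1 fell in DP cells, and 3 rose and 1 fell in SP cells. Isl1 fell in both gates (log2 -1.75 ± 0.08 in DP, -1.91 ± 0.09 in SP), whereas Nkx2-5 rose (1.71 ± 0.16 and 2.42 ± 0.16). Among paraxial markers Meox1 rose (1.28 ± 0.16 and 0.88 ± 0.17), whereas the other 4 fell in both gates. Fibroblast feeder markers (Thy1, Col1a2, Dcn, Lum and Pdgfrb) were 60.2 to 75, 95.8 to 132, 64.6 to 73.8 and 77.8 to 82.6 CPM in that order of groups. The difference in reporter effect between the gates passed for Tnnt2 (-1.28 ± 0.33, adjusted p = 0.0464) and Myl4 (-1.18 ± 0.28, adjusted p = 0.0396) of the cardiac markers. It also passed for Pdgfrb (-0.79 ± 0.20, adjusted p = 0.0456) and the blood marker Itga2b (2.655 ± 0.68, adjusted p = 0.0489). No other marker tested passed there. The part of all these marker sets in the values of the 9 genes was not tested.

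Relatives of the 9 genes were looked at through lists of family members and pathway partners, 73 genes of which 48 were tested in the reporter line and 51 in the second set. In DP cells 13 rose and 13 fell with the reporter, 54.2% against 30.7% of all genes tested (16% up, 14.7% down), and in SP cells 5 rose and 12 fell, 35.4% against 25.5% (13.1% up, 12.4% down). The latter background split, 2314 genes up and 2190 down, became 1800 and 2653 under upper-quartile scaling. The difference between the gates passed for 4 of 48, 8.33% against 3.97%. In the WT gate 8 rose and 10 fell, 35.3% against 15.8%, and with induced Etv2 11 rose and 21 fell, 62.7% against 50.8%. The calls held in every alternative run for 20 of 26 relatives for the reporter in DP and 8 of 17 in SP, 0 of 4 for the difference between the gates, 13 of 18 in the WT gate and 27 of 32 with induced Etv2.

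In the RIPOR and GTPase list (Ripor1, Ripor2, Rhoa, Rhob and Rhoc) 5 of 5 rose with the reporter in DP cells and 3 of 5 in SP cells, with list medians of 0.37 and 0.28 against 0.0042 and -0.013 for all genes. The DP call of Rhob (0.37 ± 0.11, adjusted p = 0.0231) was lost without DP Etv2-negative replicate 1 or DP Etv2-positive replicate 1 or 2 (adjusted p of 0.0712 to 0.0925). That of Rhoc (0.23 ± 0.06, adjusted p = 0.0154) did not hold in a fit of the DP groups alone (adjusted p = 0.0586), nor when DP Etv2-negative replicate 2 was dropped (adjusted p = 0.0687). Ripor2, which encodes an inhibitor of RHOA, was unlike Ripor3. It went from 0.79 ± 0.168 to 6.29 ± 2.32 CPM with the reporter in SP cells, a log2 change of 2.98 ± 0.31 (adjusted p = 4.97e-05). It rose by 2.43 ± 0.25 in the WT gate (adjusted p = 0.000139) and by 1.49 ± 0.21 with induced Etv2 (adjusted p = 0.000137), where Ripor3 fell. Its DP change of 1.54 ± 0.42 (adjusted p = 0.0138) did not hold without replicate 2 of the DP Etv2-negative cells (1.38, adjusted p = 0.0608), DP Etv2-negative replicate 3 (1.27, adjusted p = 0.0565) or DP Etv2-positive replicate 3 (1.36, adjusted p = 0.0554). Per kilobase of exon, DP Etv2-positive cells held 28.3 ± 2.87 CPM of Ripor1, 13.2 ± 2.07 of Ripor3 and 0.0854 ± 0.0168 of Ripor2.

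In the SCUBE and hedgehog list, 3 of 11 tested genes rose and 4 fell with the reporter in DP cells, none rose and 3 fell in SP cells, and 1 rose and 8 fell with induced Etv2, where the median was -1.20. The 3 Scube genes had 3 shapes. Scube1 fell with the reporter in DP (-0.998 ± 0.19, adjusted p = 0.00157) and SP cells (-1.22 ± 0.20, adjusted p = 0.00112) and with induced Etv2 (-2.24 ± 0.17, adjusted p = 1.94e-06), where Scube2 rose. Scube3 rose in DP cells, from 12 ± 3.26 to 32.4 ± 4 CPM (1.43 ± 0.23, adjusted p = 0.000498), and stood at 21.6 ± 3.99 and 17.7 ± 5.77 CPM in SP cells without and with the reporter. Its reporter effects differed between the gates by -1.72 ± 0.32 (adjusted p = 0.0194), the direction seen in Ripor3 and opposite to Scube2. That call did not hold when DP Etv2-negative replicate 1 was left out (-1.58, adjusted p = 0.0561), nor without DP Etv2-negative replicate 2 (-1.64, adjusted p = 0.0705) or SP Etv2-negative replicate 1 (-1.57, adjusted p = 0.0531). Gli1, a transcription factor and target of hedgehog signalling, fell with induced Etv2 by 3.29 on the log2 scale (SE 0.29, adjusted p = 5.9e-06), and Ptch1, a hedgehog receptor and target, by 1.20 (SE 0.09, adjusted p = 2.14e-06). Hhip, which binds hedgehog ligands, rose with the reporter in DP cells by 2.44 ± 0.40 (adjusted p = 0.000543) and in the WT gate by 1.94 ± 0.36 (adjusted p = 0.00419), and fell with induced Etv2 by 2.52 (SE 0.37, adjusted p = 0.000218).

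**Figure D4:**
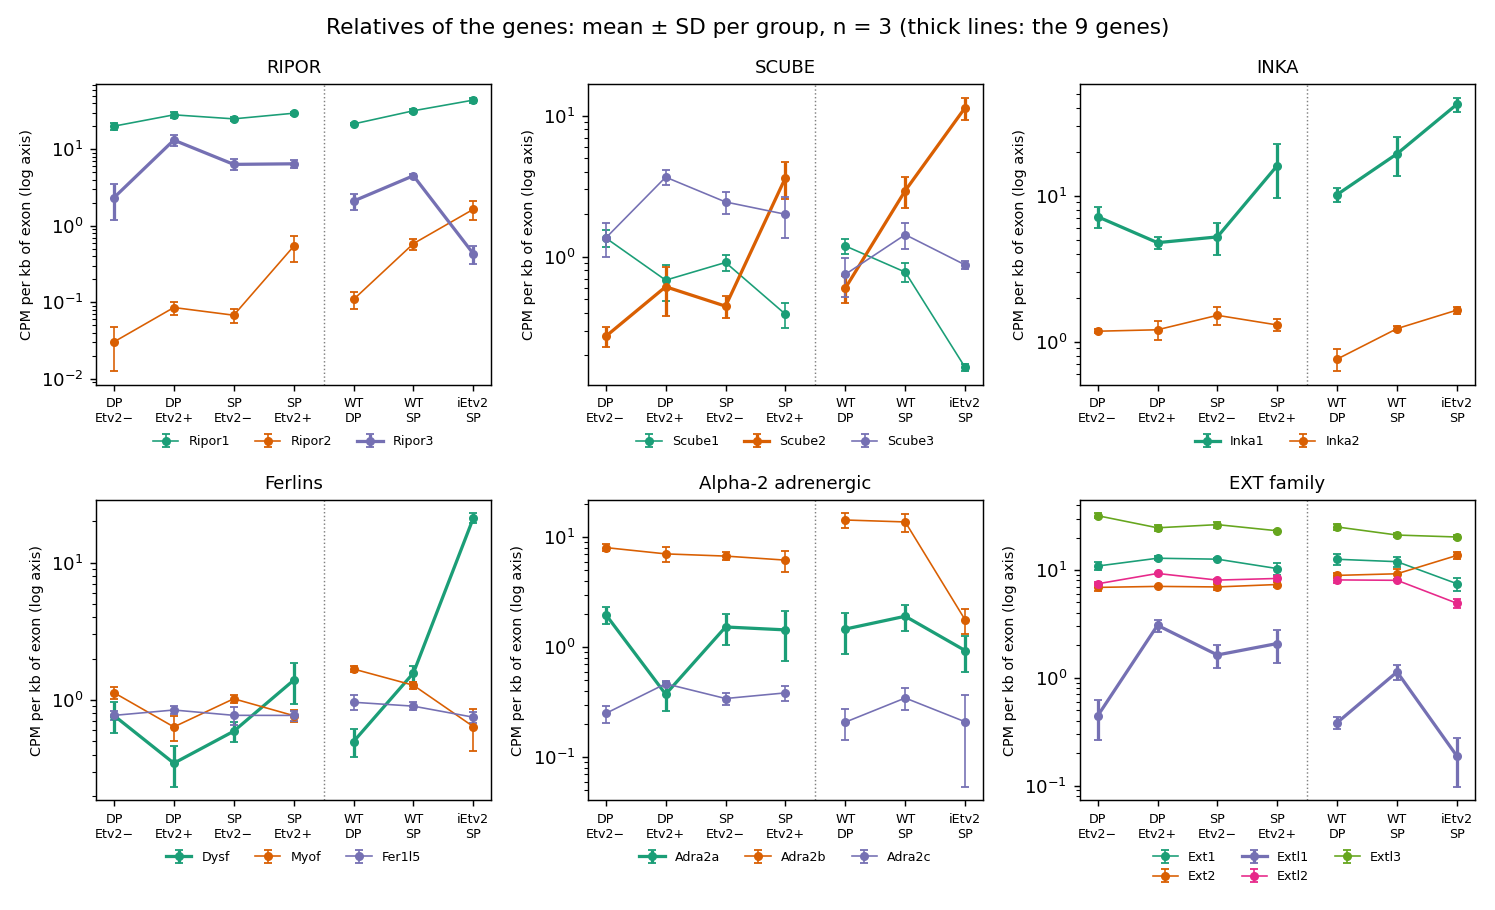
CPM per kilobase of exon (log axes) of 6 of the genes and their relatives in each group, as mean ± SD of 3 libraries, with the 9 genes drawn as thick lines. The dotted line separates the reporter line from the second set, whose levels are not comparable. Scube2 rises and Scube1 falls from WT DP to iEtv2 SP, and Ripor2 rises where Ripor3 falls in iEtv2 SP.

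Dysferlin's relative Myof, which also encodes a ferlin, fell with the reporter in DP cells by 0.83 (SE 0.14, adjusted p = 0.000598) and with induced Etv2 by 1.00 on the log2 scale (SE 0.19, adjusted p = 0.00118), where Dysf rose. Its SP call (-0.41 ± 0.14, adjusted p = 0.0426) was lost without any 1 SP library except Etv2-positive replicate 2, and without both libraries of high ribosomal share, with adjusted p up to 0.289. Of the ferlin list 2 of 5 were tested, and Fer1l5 did not pass in these comparisons. Beside Inka1, Inka2 rose in the WT gate by 0.69 ± 0.15 (adjusted p = 0.0107) and with induced Etv2 by 0.42 ± 0.14 (adjusted p = 0.0296), the latter kept in 8 of 13 alternatives and lost without WT SP replicate 1 or 2 or iEtv2 SP replicate 2 or 3. Pak4, the kinase that the INKA proteins inhibit, fell with induced Etv2 by 0.45 (SE 0.07, adjusted p = 0.000366). In the spindlin list 2 of 6 genes were tested, and Spin1 fell with the reporter in DP cells by 0.31 (SE 0.05, adjusted p = 0.000634), where Spin2c was higher, and in SP cells by 0.21 (SE 0.05, adjusted p = 0.00989), where Spin2c was lower too. The SP call of Spin1 was lost without both libraries of high ribosomal share (adjusted p = 0.0761). With induced Etv2 Spin1 rose by 0.24 ± 0.07 (adjusted p = 0.0152), a call lost without WT SP replicate 1 or iEtv2 SP replicate 3 (adjusted p = 0.0595 and 0.067). The 1 proline-rich relative tested, Prrt3, had group means of at most 1.42 CPM. It fell with the reporter in SP cells by 1.19 (SE 0.37, adjusted p = 0.0329), a call lost in 5 of the 6 fits that left out an SP library (adjusted p of 0.0548 to 0.111), all but SP Etv2-negative replicate 3. It was also lost with DESeq2 (adjusted p = 0.0522) and without both libraries of high ribosomal share (-0.95, adjusted p = 0.215). It rose with induced Etv2 by 0.89 ± 0.27 (adjusted p = 0.0184), a call lost without WT SP replicate 1 or 3 or iEtv2 SP replicate 3 (adjusted p of 0.0577 to 0.0666).

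Among heparan sulfate enzymes, 3 of 12 rose and 4 fell with the reporter in DP cells, 2 rose and 4 fell in SP cells, and 3 of 14 rose and 6 fell with induced Etv2. Hs3st3b1, a sulfotransferase that finishes heparan sulfate chains, went from 133.8 ± 12 to 52 ± 12.5 CPM in DP and from 80.8 ± 9.68 to 28.4 ± 6.34 in SP cells with the reporter (log2 -1.37 ± 0.18, adjusted p = 0.00011, and -1.51 ± 0.18, adjusted p = 0.00014). Hs6st2, a sulfotransferase acting on another position, rose from 19.7 ± 3.64 to 74.5 ± 21.7 CPM in DP cells (1.92 ± 0.18, adjusted p = 9.7e-06) and from 29 ± 3.57 to 47.3 ± 2.29 in SP cells (0.70 ± 0.17, adjusted p = 0.0107). The latter call was lost without both libraries of high ribosomal share (0.61, adjusted p = 0.0891). Its reporter effects differed by -1.22 ± 0.25 (adjusted p = 0.0253), in the direction seen in Extl1, a call kept in 12 of 19 alternatives. It was lost, at adjusted p of 0.0501 to 0.0801, without DP Etv2-negative replicate 1 or 2, SP Etv2-negative replicate 1 or 3, SP Etv2-positive replicate 2 or 3, or both libraries of high ribosomal share. Ext1, a polymerase of the chain, differed by -0.53 ± 0.12 (adjusted p = 0.0356), a call kept in 9 of 19 and, among fits without 1 library, only in those without DP Etv2-negative replicate 3, DP Etv2-positive replicate 1 or SP Etv2-positive replicate 1 (adjusted p of 0.0544 to 0.102 in the others). Per kilobase of exon Extl1 was the lowest of the EXT genes shown, at 3.07 CPM in DP Etv2-positive cells against 24.7 for Extl3 and 12.9 for Ext1.

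Of the genes of tryptophan use, 1 of 7 tested rose and none fell with the reporter in DP cells, none rose and 1 fell in SP cells, and 1 rose and 2 fell with induced Etv2. The DP call was Tph1 (1.07 ± 0.34, adjusted p = 0.0302), lost without any 1 DP library except Etv2-positive replicate 3 (adjusted p of 0.0649 to 0.106). The SP call was Kyat1, an aminotransferase acting on kynurenine (-0.28 ± 0.10, adjusted p = 0.0476), kept in 4 of 14 alternatives and lost without each SP library in turn, with adjusted p up to 0.234. Tph1, which takes tryptophan towards serotonin, fell with induced Etv2 from 6.53 ± 0.408 to 0.582 ± 0.262 CPM (log2 -3.49 ± 0.32, adjusted p = 7.37e-06), beside the fall of Tdo2. Qprt, a later enzyme on the way to NAD, rose there by 1.63 ± 0.16 (adjusted p = 1.03e-05). In the adrenergic list 1 of 6 rose and 3 fell with the reporter in DP cells, and none rose and 1 fell in SP cells. Adra2c, the alpha-2 relative that rose, went from 0.861 ± 0.149 to 1.60 ± 0.0896 CPM in DP cells (0.90 ± 0.20, adjusted p = 0.00371), where Adra2a was lower. Adrb1, a beta receptor, changed by -1.94 ± 0.34 in DP cells (adjusted p = 0.000873) and by -2.23 ± 0.36 with induced Etv2 (adjusted p = 0.000383). Adra2b did not pass in the reporter line, at 24.8 ± 5.45 to 32.2 ± 2.48 CPM, and fell with induced Etv2 from 55.1 ± 10.3 to 7.11 ± 1.77 CPM (log2 -2.96 ± 0.19, adjusted p = 6.99e-07).

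Genes with the most similar pattern were sought by Pearson's r of log2 CPM over the 12 reporter-line libraries among 11882 genes, as a description of libraries that share their groups. For Ripor3 they were Paqr7 (0.986), Krt8 (0.985) and Hspa12b (0.980), and for Extl1 Krt18 (0.989), S1pr2 (0.987) and Krt8-ps (0.985), a pseudogene that can share reads with Krt8. Krt8 and Krt18 encode the paired keratins of simple epithelia. For Tdo2 they were Ugdh (0.992), an enzyme that makes a building block of glycosaminoglycans, Gucy1b1 (0.982) and Dok4 (0.979), and for Spin2c Gnb4 (0.983), St3gal5 (0.970) and Lrpap1 (0.966). For Scube2 they were Tbc1d14 (0.981), Plxnd1 (0.980), a semaphorin receptor of endothelium, and Itprid2 (0.978). For Inka1 they were Plxnc1 (0.953), Nrtn (0.952) and Ebf1 (0.947), for Dysf Mcm2 (0.954), Kif2a (0.947) and Phf6 (0.945), for Prrt4 Mmp11 (0.941), Sgms1 (0.940) and Traf3ip2 (0.936), and for Adra2a Tspan5 (0.965), Gramd4 (0.935) and Kctd3 (0.922).

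Over the 9 libraries of the second set, some of these likenesses were high, some were weak and others had the opposite sign. Values there were 0.985 for Scube2 with Itprid2, 0.957 for Extl1 with Krt8-ps, 0.953 for Ripor3 with Krt8, 0.953 for Inka1 with Plxnc1 and 0.938 for Tdo2 with Ugdh. They were -0.873 for Prrt4 with Mmp11, -0.571 for Adra2a with Gramd4, -0.474 for Adra2a with Tspan5, -0.272 for Spin2c with Lrpap1 and -0.129 for Dysf with Mcm2. The lowest positive values included those of the closest reporter-line matches of Ripor3 (Paqr7, 0.136) and Scube2 (Tbc1d14, 0.168). Prrt4 with Traf3ip2 had 0.246 and Adra2a with Kctd3 0.288.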

How the data were processed

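Total RNA of sorted day 4 embryoid body cells was sequenced in 21 libraries with a stranded kit. The deposited values are raw counts, 1 per Ensembl gene ID, for which featureCounts and mm10 are named in the submitters' processing notes; aligner, annotation and strand setting are not given in the sources used here. The 9 WT and iEtv2 files carry summary lines as well, unmapped (3.95 to 5.25%), multimapping (7.34 to 8.75%), without a feature (5.04 to 7.91%) and ambiguous (4.3 to 4.91%), which are not of the kind featureCounts writes, so the counter is in doubt for them. These entries were left out. Of 55487 gene IDs, 55227 were named from the GENCODE M21 annotation and 260 were not.

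The 9 genes and the lists of relatives and markers were chosen with earlier results of these data known. Named beside them are Etv2, Pdgfra and Kdr, up to 4 called relatives per list with the largest change, and the 3 genes most alike to each (mean of at least 1 CPM, prior count 2). Wnt2b, Hhex, Gucy1b1, Fer1l5, Spin2d and, with induced Etv2, Ptch1 were named after their values were seen. Of the relatives counted, 1 is not reported here by name.

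Counts were tested in R 4.3.3 with edgeR 4.0.16 (TMM scaling, filterByExpr, quasi-likelihood, two-sided, Benjamini-Hochberg adjusted p below 0.05), with the 12 reporter-line libraries in 1 fit and the 9 others in another. SE was derived from the log2 fold change and its F statistic, as their ratio after taking the root of F. The fits were tested on simulated data. Other settings tried were scaling by RLE or upper quartile, testing every gene, keeping genes of 1 CPM in at least 3 libraries, DESeq2 1.42.0, a block for the replicate number, fits of the compared groups alone, and dropping each library in turn. Dropping both libraries of high ribosomal share was chosen after seeing the data. Correlations of same-numbered libraries, after group means were removed, were 0.175 to 0.342 for the reporter in DP and 0.143 to 0.268 in SP. For the gates they were 0.0962 to 0.334 among Etv2-negative, 0.0767 to 0.269 among Etv2-positive and 0.0916 to 0.342 among WT cells. In each of these comparisons they lay above every correlation of differently numbered libraries (at most 0.0879). This was not so for induced Etv2 (-0.0763 to 0.166, against up to 0.208). Deviations from a mean of 3 libraries cancel within a group, so the 2 kinds of correlation are not independent. The margin was narrow in the WT gate (0.0916 against 0.0879), and the labels do not state a pairing. The libraries may thus be paired by number. The main fits did not use such a pairing, and only the fit with a replicate block did. CPM, windows and figures were computed with Python 3.11.15, pandas 2.3.3 and matplotlib 3.10.9. Promoters come from RefSeq on GRCm38.p6, and 50-base windows were searched in transcripts of all other genes.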

Additional observations from a re-analysis of the deposited data

Results flagged for a closer look

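The Etv2 reporter effect differed between the gates for each of the 9 genes, which is the contrast that chose them, so the values carry no test. As log2 SP effect minus DP effect they were -2.77 for Tdo2, -2.65 for Prrt4, -2.54 for Spin2c, -2.48 for Ripor3, -2.43 for Extl1, 1.87 for Scube2, 2.21 for Inka1, 2.34 for Adra2a and 2.37 for Dysf. The same difference passed the edgeR quasi-likelihood test for relatives as well, at -1.72 for Scube3, -1.22 for Hs6st2 and -0.53 for Ext1.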

How the results depend on the processing

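The 6 genes called higher in the WT gate, and 8 of the 9 calls with induced Etv2, passed in 13 of 13 alternatives each, Adra2a in 10 of 13. Leaving out 1 library gave 6 to 7 genes higher in the WT gate, 3 higher and 5 to 6 lower with induced Etv2, and 0 lower in the WT gate. No direction of the 9 genes in these 2 comparisons reversed. Genes called for the reporter in SP fell from 4504 to 2459 without both libraries of high ribosomal share. Genes called between gates among Etv2-positive cells were 2456, against 1324 with only the compared groups fitted, 1106 without both of those libraries and 1342 to 2403 leaving out 1 library (1342, 1359 and 1593 without SP Etv2-positive replicates 3, 1 and 2). Among Etv2-negative cells they were 1936, and 787 to 2268 leaving out 1 library (787 and 815 without DP Etv2-negative replicates 1 and 2, 1049 and 1092 without SP Etv2-negative replicates 1 and 3). Genes whose reporter effect differed between gates were 702, against 1740 with no filter, 1269 with DESeq2, 119 without both libraries of high ribosomal share, and 50 to 1268 leaving out 1 library (50, 114 and 1268 without DP Etv2-negative replicates 2, 1 and 3; 143, 367 and 162 without SP Etv2-negative replicates 1, 2 and 3; 188 and 190 without SP Etv2-positive replicates 2 and 3; 211 without DP Etv2-positive replicate 3). With a replicate block, which pairs libraries by number, they were 1537, and no other count of calls moved by over 1.5 times. In the WT gate 2580 genes were called, and 1509 to 2683 leaving out 1 library (1509 without WT SP replicate 1, 1525 without WT DP replicate 3). The cause of these shifts was not tested. In iEtv2 SP cells Tdo2 and Prrt4, and Extl1 in its lowest library (0.372 CPM), lie within a few times the limit of 3 counts, so depth limits those values.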
